A study of Homo sapiens with 9 samples.

Results

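The regions described here were called as accessible in both control lists of an ATAC-seq series in T47D cells and were not called after knockdown of ZHX2. The 3 deposited lists of called regions were merged wherever intervals shared at least 1 bp. A merged region was taken as a member when it held an interval of the normoxia list and of the hypoxia list, both with the control hairpin, and none of the shZHX2 list. This rule found 14973 members among 97804 merged regions (15.3%, Wilson 95% interval 15.1% to 15.5%). They covered 7.08 Mb, and 14933 of them were made of 1 interval from each control list. Of the 72073 regions that both control lists shared, 20.8% were members, and the other 57100 were called in all 3 lists. The rule itself fixed that share, so nothing is read from it.

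T47D is an established human breast cancer line of luminal type. The 9 samples fell into 3 groups of 3: normoxia with a control short hairpin RNA (shCtrl), hypoxia with shCtrl, and hypoxia with a hairpin against ZHX2 (shZHX2). The region names in both control lists carry the letters GFP, which the labels do not explain, so what the control hairpin targets is not known here. All groups had been infected with lentivirus and selected with hygromycin or puromycin. The sources used here do not give the oxygen level, the length of the hypoxia or the number of hairpins, and no shZHX2 group in normoxia was analysed here, so an effect of the hairpin cannot be told apart from one that needs hypoxia. Each group gave 1 list, with 90962 regions in normoxia, 77451 in hypoxia with shCtrl and 62779 in hypoxia with shZHX2, and the reads behind each list are not known. No spread between replicates could therefore be computed and no test between groups was possible. Intervals on shares cover counting error only, and regions of 1 list are not replicates.

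ATAC-seq marks DNA that a transposase can reach, which is mostly promoters, enhancers and insulators from which nucleosomes have been displaced. Promoters that are active in most cells tend to be strongly and stably open, and enhancers vary more with cell type and state. ZHX2 is a transcription factor with zinc fingers and homeodomains and is a substrate of the VHL ubiquitin ligase, the same enzyme that marks the hypoxia-inducible factors for destruction when oxygen is present. "Not called" means here that no interval passed the authors' threshold in the shZHX2 list (a −log10 p above 10 in every region of each list). The list holds no value for a site below that threshold, so a member may have kept part of its signal.

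Few members lay at promoters, and the sequences of 7 that did show how different those promoters were. Each stretch is the 250 bases just before the annotated start, in the direction of transcription, from the RefSeq promoter table of GRCh38.p14, whose coordinates are those of hg38. Capitals mark the CCAAT box (CCAAT or ATTGG), which binds the factor NF-Y, and the GC box (GGGCGG or CCGCCC), which binds SP1 and related factors. These genes were chosen after their values were seen. CCDC116 has the member at a start with the highest mean rank in the control lists. RYR1 (a calcium release channel of muscle) and LRRC71 also rank high and have no second start in the table. CCR1 (a chemokine receptor) is poor in G and C. ESR1 encodes the oestrogen receptor of luminal cells and has 6 starts in the table, another of which lay in a region called in all 3 lists. GOLGA8G and GOLGA8S are the closest pair in a family of duplicated genes.
CCDC116, chr22:21632510-21632759, + strand: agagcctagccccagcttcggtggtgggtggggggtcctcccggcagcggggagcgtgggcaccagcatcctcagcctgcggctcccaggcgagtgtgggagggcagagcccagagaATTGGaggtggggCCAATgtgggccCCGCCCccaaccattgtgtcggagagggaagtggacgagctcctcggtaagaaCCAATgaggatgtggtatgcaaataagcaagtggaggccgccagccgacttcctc
RYR1, chr19:38433441-38433690, + strand: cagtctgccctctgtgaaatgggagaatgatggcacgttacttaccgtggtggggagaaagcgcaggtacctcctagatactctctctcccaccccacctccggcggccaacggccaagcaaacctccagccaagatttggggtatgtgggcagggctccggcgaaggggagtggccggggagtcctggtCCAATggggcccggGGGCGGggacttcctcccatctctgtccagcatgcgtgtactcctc
LRRC71, chr1:156920382-156920631, + strand: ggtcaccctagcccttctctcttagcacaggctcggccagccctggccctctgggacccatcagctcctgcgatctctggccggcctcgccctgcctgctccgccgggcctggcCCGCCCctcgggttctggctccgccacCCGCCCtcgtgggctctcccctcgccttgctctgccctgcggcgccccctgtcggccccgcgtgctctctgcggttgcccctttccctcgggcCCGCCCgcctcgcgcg
CCR1, chr3:46208314-46208563, - strand: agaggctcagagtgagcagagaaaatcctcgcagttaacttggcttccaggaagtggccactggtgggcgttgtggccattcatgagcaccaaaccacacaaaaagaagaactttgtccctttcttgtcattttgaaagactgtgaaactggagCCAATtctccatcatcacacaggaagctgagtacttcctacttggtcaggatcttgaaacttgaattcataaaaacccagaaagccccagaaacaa
ESR1, chr6:151805455-151805704, + strand: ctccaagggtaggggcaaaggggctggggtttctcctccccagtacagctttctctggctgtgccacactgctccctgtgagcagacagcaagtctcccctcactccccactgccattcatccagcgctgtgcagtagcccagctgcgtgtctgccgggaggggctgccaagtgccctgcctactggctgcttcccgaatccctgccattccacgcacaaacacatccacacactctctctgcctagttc
GOLGA8G, chr15:28532972-28533221, - strand: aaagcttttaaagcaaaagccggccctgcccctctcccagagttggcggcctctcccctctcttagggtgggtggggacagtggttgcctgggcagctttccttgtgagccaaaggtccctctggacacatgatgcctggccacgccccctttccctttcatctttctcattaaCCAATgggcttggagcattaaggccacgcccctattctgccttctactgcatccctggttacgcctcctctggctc
GOLGA8S, chr15:23354498-23354747, + strand: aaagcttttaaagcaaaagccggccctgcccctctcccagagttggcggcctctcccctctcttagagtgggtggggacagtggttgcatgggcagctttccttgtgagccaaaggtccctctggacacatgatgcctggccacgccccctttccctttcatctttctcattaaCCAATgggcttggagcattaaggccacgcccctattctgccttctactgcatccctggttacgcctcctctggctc
The G and C content of these stretches ran from 45.2% for CCR1 to 75.2% for LRRC71, which holds 3 GC boxes and 24 CpG sites. CCDC116 holds 3 CCAAT boxes and 1 GC box, while the ESR1 stretch holds neither.

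Members were rare at promoters. A start of a protein-coding gene lay within 1 kb of 343 of the 14180 members on the 23 chromosomes that the promoter table covers (2.42%, 2.18% to 2.68%). For regions called in all 3 lists this share was 20.3% (19.9% to 20.6%). Members were weaker regions, so the all-3 regions were also weighted to the members' scores: each region fell into 1 cell of a 10 by 10 grid of its score decile in normoxia and in hypoxia, and 14972 of 14973 members had an all-3 region in their cell. The share then fell to 4.62%, which is still above the members' interval. Members that covered a start numbered 194 (1.37%, 1.19% to 1.57%), against 19.1% of all-3 regions and 3.28% at the members' scores. Seen from the other side, 3.02% of the control-shared regions within 1 kb of a start were members, and 24.2% of those farther away. The scores alone would have placed 535 members near a start, so the observed number was 0.641 of that. Neither comparison matched width. In the fifth hypoxia score decile, control-shared regions within 1 kb of a start had a median hypoxia width of 651 bp, and those farther away 396 bp. The part of width in these shares was not tested. Of the regions called in normoxia only, 2.23% (2.01% to 2.48%) lay within 1 kb of a start, close to the members. Of those called in hypoxia with shCtrl only, 1.03% (0.761% to 1.40%) did. For covered starts both were below the members' interval, at 0.879% (0.744% to 1.04%) and 0.176% (0.0853% to 0.363%).

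**Figure D1:**
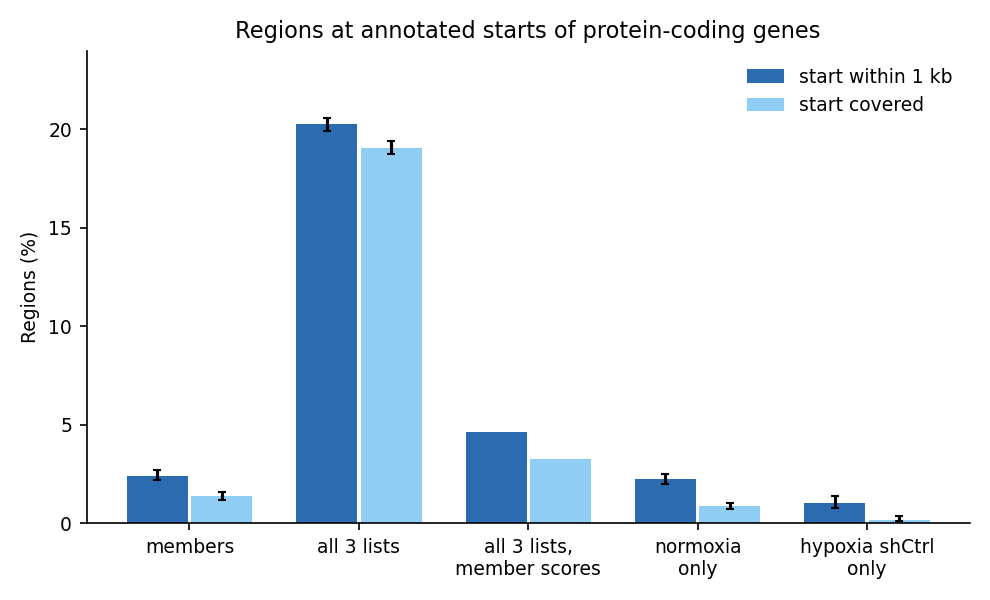
Percent of regions within 1 kb of an annotated start of a protein-coding gene (dark bars) or covering one (light bars), by the lists in which the region was called; lines are Wilson 95% intervals, and the bars for all-3 regions weighted to the members' scores have none. The members stood at 2.42% and 1.37%, below the 4.62% and 3.28% of all-3 regions of like score.

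Most members lay between or deep inside genes. A gene end means here either end of the span of a gene, whether or not transcription starts there. Outside every protein-coding gene and over 1 kb from a gene end lay 7845 members (52.4%, 51.6% to 53.2%), against 39.6% of all-3 regions and 46.7% at the members' scores. Another 6385 members (42.6%) lay inside a gene span and over 1 kb from its ends, against 37.0% and 46.7%. Over 50 kb from any gene end lay 39.0% of members, 26.0% of all-3 regions and 36.9% at the members' scores. The median distance to the nearest annotated start was 54.0 kb for members and 27.7 kb for all-3 regions. Against all-3 regions of like score, the members thus leaned towards the space between genes rather than towards gene bodies. The lean was not particular to members. Outside genes and over 1 kb from a gene end lay 50.7% of regions called in normoxia only and 56.6% of those in hypoxia with shCtrl only. Over 50 kb from any gene end lay 40.0% and 44.6%, and the median distances to a start were 54.1 and 71.0 kb.

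Members came from the weak end of both control lists. Their median fold enrichment over local background was 3.47 in normoxia and 3.24 in hypoxia, against 5.19 and 4.99 for all-3 regions, all values being the authors' own. By score, which follows the −log10 q, the median member stood at percentile 30.7 of the normoxia list and 20.7 of the hypoxia list, and the middle 50% ran from 17.9 to 43.2 and from 9.90 to 33.1. Regions called in normoxia only stood lower still, with a median percentile of 14.2 and a median fold of 3.04. These values come from the lists that the rule used and describe the members without testing anything.

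The share of control-shared regions that were members fell steeply with strength. By normoxia score it was 73.7% in the lowest decile, 43.7% in the fourth, 16.4% in the sixth and 1.58% in the eighth. In the highest decile 1 of 9096 was a member. By hypoxia score the share was 67.1% in the lowest decile, 19.1% in the fifth and 0 of 7741 in the highest (Wilson upper limit 0.0496%). Ranking by fold gave a flatter start, with 45.5% in the lowest and 49.4% in the second decile of the normoxia list. At equal normoxia strength the median hypoxia percentile was also lower for members, by little in the weak deciles. It was 8.78 for members and 10.5 for all-3 regions in the lowest normoxia decile, and 17.1 and 21.6 in the third. In the sixth it was 36 for 1457 members and 48.2 for 7403 all-3 regions.

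**Figure D2:**
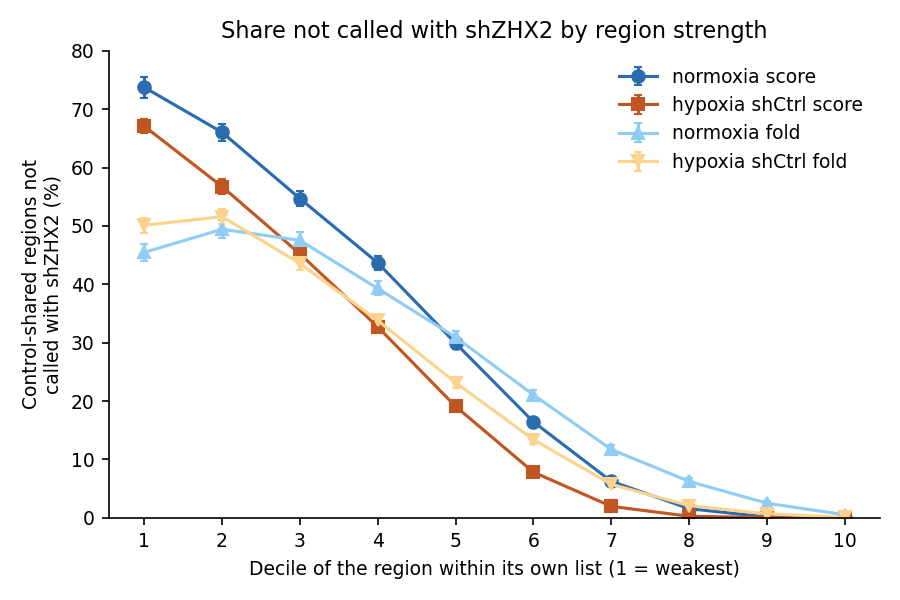
Percent of control-shared regions that were not called with shZHX2, by decile of the region within the normoxia or the hypoxia shCtrl list, ranked by the authors' score or fold enrichment; lines are Wilson 95% intervals. By normoxia score the share fell from 73.7% in the lowest decile to 1.58% in the eighth.

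The number of members depended on how many regions each list held. When each control list was shortened to the 62779 highest scores, the length of the shZHX2 list, 5338 of the 14973 members were left (35.7%), and 6587 were left when the lists were shortened by fold. With lists of equal length the share of members within 1 kb of a start was 2.38%, close to the 2.42% of the full lists.

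Some members did stand out in both control lists. Ranked by mean percentile, the first lay at chr18:112169-112413, 8.39 kb from LOC124905450, with a −log10 q of 408 in normoxia and 214 in hypoxia but folds of only 2.10 and 1.73. The second, at chr8:19171675-19172138 with no gene end within 50 kb, had the opposite make-up, with folds of 9.08 and 10.3. A member inside KCNK13, which encodes a potassium channel of the 2-pore type, had folds of 7.35 and 6.87 at chr14:90109834-90110359. The member 17.7 kb from an end of RXRA, a partner receptor of many nuclear receptors, reached percentile 83.3 in normoxia and 68.3 in hypoxia at chr9:134422168-134422903. METRN (a secreted neurotrophic factor), CACFD1, EVC2 (a protein of the ciliary base) and CCDC116 were the other genes within 50 kb of the 10 top members. At METRN, with folds of 2.93 and 2.95, an interval of the shZHX2 list lay 0.691 kb away.

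At the threshold itself the members were clearly apart from shZHX2 intervals. The closest member, chr12:125806030-125806410, lay 76 bp from one and had folds of 3.01 and 2.98. Just outside the rule, a region at chr9:127074828-127076178 was held in all 3 lists by an overlap of 30 bp, with folds of 3.12, 2.92 and 2.98. Such cases were few. Only 431 members lay within 1 kb of an shZHX2 interval, 6741 lay within 10 kb and 771 over 100 kb away, with a median of 11569 bp. Within any 1 list no neighbouring regions were closer than 561 bp. The 4113 all-3 regions in the lowest score decile of the shZHX2 list, which passed its threshold least strongly, had median percentiles of 36.2 in normoxia and 23.4 in hypoxia, a little above the members' 30.7 and 20.7.

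Members were narrow for their strength. Their median width was 368 bp in normoxia and 313 bp in hypoxia, against 442 bp and 364 bp for all-3 regions weighted to the same scores. The folds of the same weighted regions were 3.42 and 3.21, close to the members' 3.47 and 3.24. When the control-shared regions of each score cell were split at their median hypoxia width, 25.6% of the narrower ones were members (25.1% to 26.0%) and 16% of the wider ones (15.6% to 16.3%). In the fourth hypoxia decile the shares were 43.5% (41.9% to 45.1%) and 22% (20.6% to 23.3%), and in the sixth 11.6% and 4.05%. Width comes from the same lists as the rule, so this is a description. In the fourth decile the narrower regions had a median of 315 bp and a median fold of 3.88, the wider ones 478 bp and 3.83.

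**Figure D3:**
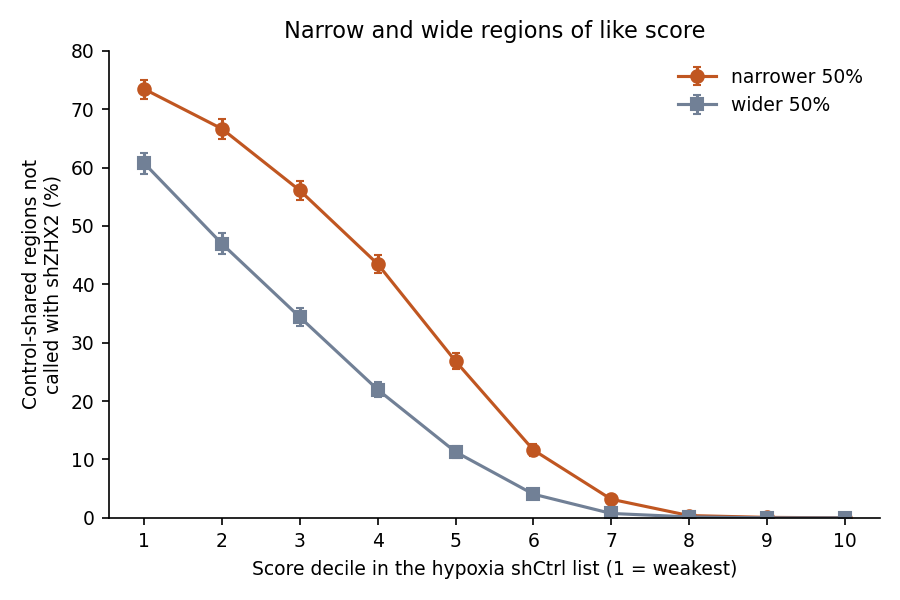
Percent of control-shared regions not called with shZHX2 by hypoxia score decile, for the narrower and the wider 50% of regions within each cell of normoxia and hypoxia score; lines are Wilson 95% intervals. Narrower regions lay above wider ones in the 9 lowest deciles, for example at 43.5% against 22% in the fourth.

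Most members stood alone between regions of other classes. Along the chromosomes 10259 members had no member as the next region on either side, 3428 stood in pairs, and 309 runs held 3. A neighbour of a member was itself a member in 17.4% of cases, where members made up 15.3% of all merged regions, and it was an all-3 region in 54.8%, against 58.4% of all. The longest run held 7 members over 198 kb at chr2:23366751-23564910, beside and inside KLHL29, with folds from 3.12 to 6.05 in normoxia and from 2.97 to 4.93 in hypoxia. Of 16 runs of 5, the shortest in span, at chr5:1667009-1686605, had no gene end within 50 kb. The next shortest, at chr1:40630593-40654147, lay inside RIMS3, a protein of the presynaptic release site. A run of 5 at chr11:69564386-69617121 lay beside CCND1, the cyclin D1 gene that oestrogen induces in breast cells, and was picked out after its values were seen. KLHL29 had 4 of its 5 control-shared regions as members and RIMS3 5 of 11, where the regions' scores gave 1.78 and 3.14. Both genes were chosen for their runs of members, which favours such an excess.

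By gene, 9130 members (61.0%) lay within 50 kb of a protein-coding gene end and were assigned to the nearest. They touched 6280 of 20046 protein-coding genes (31.3%), or 36.4% of the genes that had any control-shared region, and 17.8% of the control-shared regions assigned to genes were members. Most of these genes, 4380, had 1 member, and 70 had 5 or more. A gene with many regions has more chances to hold a member, so most counts are given beside the number that the regions' scores alone would give.

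The gene with the most members was ELFN1, a synaptic adhesion protein, with 8 of its 14 control-shared regions where scores gave 6.09. The member at chr7:1670066-1670341 covers 1 of 2 annotated starts of ELFN1 and had folds of 2.02 and 2.19, while the other start lay in an all-3 region. Its relative ELFN2 had 6 of 8 where scores gave 3.94, and members of ELFN2 touched both gene ends, one of them at the start. WNT9A, a secreted Wnt ligand, had 7 of 12 where scores gave 4.21. Its 7 members had normoxia folds from 1.61 to 2.92 and hypoxia folds from 1.81 to 2.86, so all of them were shallow. TMEM132B had 7 of 11 (4.61 by score), with 1 stronger member of folds 5.64 and 6.09. CPLX2, which controls release of synaptic vesicles, had 6 of 10 (2.79 by score), and the potassium channel gene KCNMA1 had 6 of 10 (2.97 by score). The postsynaptic scaffold gene SHANK2 had 7 of 18 (5.70 by score), ZNRF4 6 of 8 (3.78) and LOC400499 6 of 10 (2.76). TRPS1, a GATA-type repressor of luminal cells, had 7 of 16 against 7.98 by score. The 5 genes with 6 members were taken from 19 such genes by the larger share of their control-shared regions that were members, and then by symbol. The choice thus favours an excess over the scores, which is a description only. Shortened to equal length, the lists left 1 member at ELFN1, 2 at WNT9A, 4 at KCNMA1 and none at TRPS1.

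Of 39 HIF targets and hypoxia response genes 15 had a member (38.5%, beside 31.3% of all genes), and their 30 members stood against 31.2 by score. Most list genes described here and in the lists below were named because they had 3 or more members. That choice favours an excess over the scores at single genes, so those counts are a description only. BHLHE40, a repressor induced by hypoxia, had 4 of 7 control-shared regions as members where scores gave 1.47. Its 4 members had normoxia folds of 5.29, 1.93, 4.0 and 4.11 and hypoxia folds of 3.57, 1.82, 3.14 and 3.21, and its 3 other regions were called in all 3 lists. PFKFB3, which makes the activator of glycolytic phosphofructokinase, had 4 of 10 (2.76 by score). VEGFA, the angiogenic growth factor, had 3 of 9 (3.53 by score), with normoxia folds of 3.91, 3.12 and 3.86 and hypoxia folds of 3.83, 3.27 and 3.42. ENO1, a glycolytic enzyme, had a member 0.793 kb from a gene end. PDK1 had none among 3 control-shared regions, and CA9 had no region assigned in any list.

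Among the 11 oxygen sensing and ZHX family genes 7 had a member (63.6%, beside 31.3% of all genes), and their 10 members stood against 9.15 by score. EPAS1, which encodes HIF-2 alpha, had 3 of 7 (2.06 by score), with normoxia folds of 4.51, 4.10 and 4.49 and hypoxia folds of 3.74, 3.80 and 3.06. The nearest lay 10.35 kb from a gene end. HIF1A had none among 3 control-shared regions. ZHX2 itself had 1 of 9 (1.49 by score), at chr8:122988731-122989110, 14.2 kb outside the gene, with folds of 4.79 and 4.26. A hairpin acts on RNA, so accessibility at ZHX2 does not check the knockdown. EGLN2, an oxygen-sensing prolyl hydroxylase, had a member 0.419 kb from a gene end.

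Of 30 luminal and oestrogen receptor genes 20 had a member (66.7%, beside 31.3% of all genes). They also had 179 control-shared regions, and their 40 members stood against 42.5 by score. PGR, the progesterone receptor and a classical oestrogen target, had 3 of 6 (2.00 by score), with normoxia folds of 2.57, 3.27 and 2.66 and hypoxia folds of 2.80, 3.78 and 3.75. Around PGR the lists differed in length as well, with 18 regions in normoxia, 6 in hypoxia with shCtrl and 4 with shZHX2. GREB1, another oestrogen target, had 3 of 8 (2.66), PRLR, the prolactin receptor, 4 of 12 (3.57), and GRHL2, an epithelial factor, 4 of 15 (4.96). CCND1 had 3 of 9 where scores gave 1.61, all between 24 and 46.9 kb from the gene. ESR1 had 1 of 7 (1.25 by score), assigned at 24.3 kb from a gene end. A second member, at chr6:151805489-151805856, covered the ESR1 start whose upstream sequence is printed above. It had folds of 2.53 and 2.59 and lay over 50 kb from both gene ends, so the assignment did not count it. The promoter table holds 6 ESR1 starts, and another of them lay in an all-3 region.

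In the other regulatory lists, genes of receptor tyrosine kinases and SRC had 12 of 20 with a member (60%, beside 31.3% of all genes). Their 28 members stood against 23.7 by score. SRC, a tyrosine kinase downstream of many receptors, had 6 of 10 where scores gave 3.17. Its members had normoxia folds from 2.03 to 4.33 and hypoxia folds from 2.19 to 4.30, and the nearest lay 7.94 kb from a gene end. The receptor genes IGF1R, FGFR1 and EPHA2 had 4 of 9, 4 of 8 and 3 of 6, where scores gave 2.68, 2.63 and 2.00. AP-1 and stress factors had 11 of 18 genes with a member (61.1%). Their 18 members stood against 14.4 by score. Of the 18, 4 lay at KLF4 (4 of 9, 1.88 by score) and 3 at FOS (3 of 13, 2.59 by score). Of 32 mesenchymal, invasion and basal genes 17 had a member (53.1%). Their 27 members stood against 25.8 by score. Among them were 3 at CDH1, the epithelial cadherin (2.00 by score), and 3 at SNAI1, which represses it (2.30 by score).

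For NF-kB targets and for cell cycle, housekeeping and chromatin architecture genes, the share with a member was near or below the 31.3% of all genes. Of 20 NF-kB targets 5 had a member, of 25 cell cycle genes 7, of 22 housekeeping genes 6, and of 19 genes of chromatin architecture 6. Their members numbered 5, 8, 8 and 7 where scores gave 6.88, 6.83, 9.14 and 11.7. Within 1 kb of a gene end, members lay at 1 of 20 NF-kB targets (NFKB2) and 1 of 22 housekeeping genes (POLR2A). They also lay there at 3 of 25 cell cycle genes (CDC25A, MKI67 and PLK1) and at 0 of 19 genes of chromatin architecture. Over all protein-coding genes the share was 3.65%. At POLR2A, the largest subunit of RNA polymerase II, the member overlapped a gene end 29.8 kb from the nearest annotated start, with folds of 3.92 and 3.67. At NFKB2 the member reached percentile 71.7 in normoxia and 45.3 in hypoxia. SPDEF, TP63 and CD3D completed the list genes with a member within 1 kb of an end. Each was the only such gene in its list, of 30, 32 and 14 genes, as were ENO1 of 39 and EGLN2 of 11. The other lists had none. Most of these members were not at promoters. From the nearest start in the promoter table the member lay 30.0 kb away at CDC25A, 30.8 kb at MKI67, 12.4 kb at PLK1 and 6.11 kb at NFKB2. At ENO1, EGLN2, SPDEF and TP63 it lay 18.5, 7.50, 17.3 and 223 kb away, and only at CD3D within 1 kb (0.628 kb). None of the differences between these lists was tested. The counts at single genes changed with the settings. With lists of equal length 2 members were left at each of BHLHE40, KLF4, SRC, VEGFA, EPAS1 and PGR, 1 at CCND1 and none at PRLR. Within 20 kb instead of 50 kb, none was assigned to KCNMA1, PFKFB3, CCND1, FOS or CDH5.

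**Figure D4:**
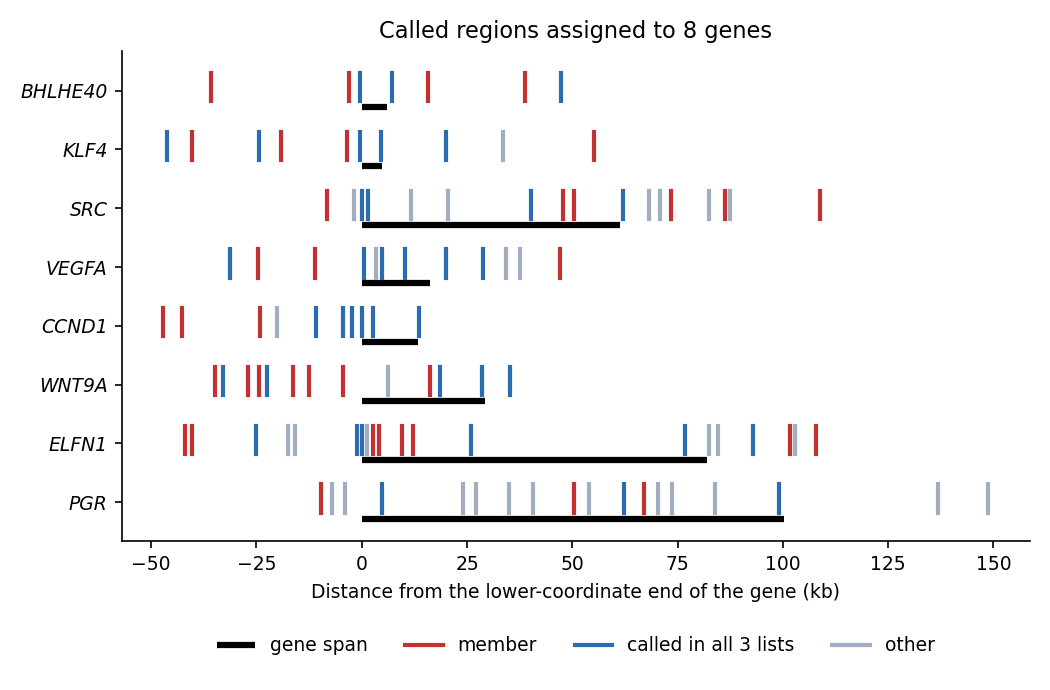
Called regions assigned to 8 genes, by distance in kb from the lower-coordinate end of the gene; each upright line is a merged region, red for members, blue for regions called in all 3 lists and grey for the rest, and the black bar is the gene span. At BHLHE40, KLF4 and CCND1 the regions at the gene itself were called in all 3 lists and the members lay outside the gene, the nearest at 2.95, 3.40 and 24 kb.

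For the labelled cell type, calls at the ends of marker genes were counted. A gene end was called at 9 of 10 luminal breast markers in normoxia and at 8 in each hypoxia list, and at 1, 1 and 0 of 3 basal markers. The basal loss was the member at a gene end of TP63, 223 kb from the nearest start in the promoter table, with folds of 3.75 and 3.44. Blood markers had a gene end called at 10, 8 and 8 of 14, stroma and endothelium markers at 5, 5 and 5 of 12, and liver and neuron markers at 6, 6 and 6 of 10. The share was thus largest for luminal markers, but open gene ends were also found at many markers of other cell types. No share over all genes is given beside these counts, and an open gene end is no measure of expression. The counts therefore do not settle the cell type. Members were assigned to 4 of 14 blood genes, to 6 of 12 genes of stroma or endothelium and to 3 of 10 genes of liver or neurons, beside 31.3% of all genes. Their members numbered 5, 10 and 7, where scores gave 6.83, 9.30 and 7.09. The genes with the most members in the list of stroma and endothelium and among the neuronal genes were CDH5, with 4 of 7 control-shared regions (2.62 by score), the cadherin of endothelium, and RBFOX3, a neuronal splicing factor, with 3 of 7 (2.21). The part of other cells in these results was not tested.

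At the promoters themselves, members covered 214 of 22198 annotated starts of protein-coding genes (0.964%), which belonged to 198 genes. For 113 of the genes every start in the table was covered by a member, and for 49 another start lay in an all-3 region. The 300-base promoters at members had a median G and C content of 60.0% and 10 CpG sites. Promoters in all-3 regions had 66.3% and 27, and 60.7% and 13 when weighted to the members' scores, so the lower G and C content went along with the lower scores.

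Short motifs were counted in these 300 bases on both strands. For stress and lineage factors the letters were TGANTCA for the AP-1 dimers of the JUN and FOS proteins, AGATAA for the zinc finger family to which GATA3 belongs, TGTTTAC for the forkhead pioneer factors, GGAATG for the TEAD partners of YAP, and TGTGGTT for the RUNX family. For hormone and oxygen signals they were AGGTCA for the monomers of nuclear receptors and ACGTG for the hypoxia-inducible factors. For factors common at promoters they were CCGGAAG for the large ETS family, GGGCGG for the GC box, CCAAT for the box bound by NF-Y, CACGTG for the E-box proteins, and TATAAA for the element bound by the TATA-binding protein. The longer motifs of GRHL, TFAP2, NRF1, CTCF and the oestrogen response element made up the 17 motifs searched. The E-box letters contain those of the hypoxia response element. A CCAAT box lay in 39.7% of member promoters (33.4% to 46.4%), in 35.1% of all-3 promoters, in 23.4% at the members' scores and in 34.7% of all promoters. A RUNX motif lay in 7.01% (15 of 214, 4.29% to 11.2%), against 2.54%, 2.48% and 3.69% in the same order. The GC box (48.6%, 73.3%, 51.8% and 56.3%) and the ETS motif (3.74%, 18.6%, 6.20% and 12.8%) were rarer in member promoters than in all-3 promoters, and nearer to them at the members' scores. The hypoxia response element lay in 21.0% of member promoters (16.1% to 27%), in 26.3% of all-3 promoters, in 17% at the members' scores and in 23% of all promoters, all within that interval. For the AP-1 motif the shares were 7.94%, 3.87%, 6.72% and 6.15%, so the order of member and all-3 promoters turned with the weighting for the hypoxia response element and not for AP-1. A match is a description of these letters and not a binding site. The weighted shares have no interval, and 208 of the 214 member promoters were in matched score cells. Shares of the other motifs are not given here, and no difference between motifs was tested.

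Among the gene families looked up, GOLGA8 had the most genes with a covered start, and it was noticed after its values were seen. GOLGA8 genes are recent duplicates on chromosome 15 of a gene for a Golgi coiled-coil protein. Members covered a start of 7 of 13 GOLGA8 genes (F, G, M, N, Q, R and S), and the other 6 had a start in an all-3 region. Normoxia folds at the 7 ran from 3.50 at GOLGA8R to 7.26 at GOLGA8Q and hypoxia folds from 3.26 to 6.75. At the 6 others the shZHX2 folds ran from 3.04 at GOLGA8J to 4.33 at GOLGA8B. The promoters of the 7 were 62.0% to 99.3% identical (median 88.0%, 21 pairs), and GOLGA8G and GOLGA8S shared 298 of 300 bases. Reads from copies as close as the last pair can be placed on the wrong copy, so which copy lost its call is uncertain. Over all genes with a start in the table, 198 of 15842 (1.25%) had a member at a start. Other families looked up the same way had one at 4 of 80 KRTAP genes, 2 of 18 LCE genes and 1 of 18 DEFB genes. The numbers were 1 of 16 for S100A genes, 3 of 437 for ZNF genes and none of 314 for olfactory receptor genes. Members also covered a start of 2 of 3 CT45A genes, a larger share than for GOLGA8, and of 1 of 12 GAGE genes. These carry the same uncertainty.

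Chromosomes 1 to 22 and X all gave members. Their share of control-shared regions ran from 16.3% on chromosome 19 (15.1% to 17.7%) to 23.2% on chromosome 7 (21.9% to 24.6%). Set against scores the order changed: chromosome 19 had 513 members where scores gave 431, a ratio of 1.19, followed by chromosome 22 at 1.14, chromosome 15 at 1.11 and chromosome 16 at 1.11. Chromosome 6 was lowest, with 558 members and a ratio of 0.888. Across 23 chromosomes the ratio went with the density of protein-coding genes (Pearson's r 0.693, Spearman's rho 0.637), and r was 0.581 without chromosomes 19 and 17. The chromosomes share the same libraries, and base composition also follows gene density, so this is a description. Within 5 Mb of the outermost gene of a chromosome lay 13.3% of members and 13.3% of all-3 regions.

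**Figure D5:**
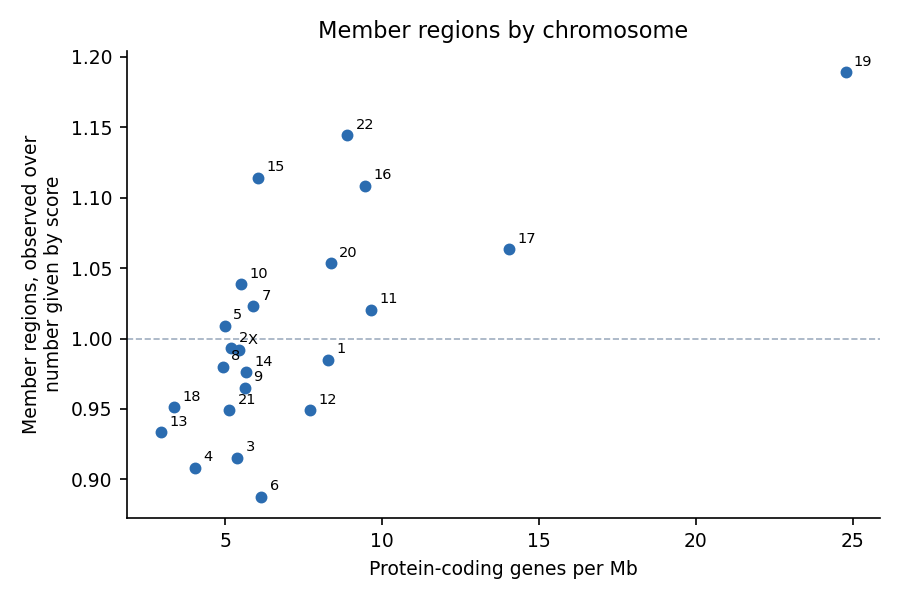
Observed members over the number given by score (vertical) against protein-coding genes per Mb (horizontal), 1 point per chromosome; the dashed line marks a ratio of 1. Chromosome 19 lay highest at 1.19 and chromosome 6 lowest at 0.888.

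In windows of 1 Mb, 940 of 2913 were dense enough for scores to give at least 6 members, and their ratios ran from 0.152 to 2.04. The highest was at chr15:28000001-29000000, with 18 members of 44 control-shared regions where scores gave 8.83. This window holds GOLGA8F, GOLGA8G and GOLGA8M, and the next window along, with 14 of 27 against 8.21, was also among the 8 highest. Others among the highest were chr11:17000001-18000000, with 15 of 43 against 7.70, and chr3:134000001-135000000, with 17 of 44 against 8.80. The lowest was chr2:191000001-192000000, with 1 of 23 against 6.57. These windows were picked from all windows for their ratios, so they carry no test.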

How the data were processed

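Accessibility was measured by ATAC-seq in 9 samples of T47D cells, and 3 lists of called regions, 1 per group, were analysed. The submitters' processing notes name FastQC, Bowtie2, SAMtools, MACS2 and the build hg38, with no version or setting. The sources used here do not say how a group's 3 samples became 1 list or whether reads were shifted for the transposase. Deposited with each region are the authors' score, their fold enrichment (a ratio over the local background), and their −log10 p-value and −log10 q-value. The score equals 10 times the −log10 q-value, cut to a whole number, for almost all regions. No file gives values per sample or reads per list, so the depth is unknown and no replicate spread or test between groups could be computed.

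Members and gene lists were chosen with earlier results of these data known. Lists were merged at 1 bp of overlap, and each region was ranked by score within its list (percentile, decile). Numbers "by score" give each control-shared region the member rate of its cell in a 10 by 10 grid of normoxia and hypoxia score deciles. Positions came from RefSeq tables of GRCh38.p14: 20046 protein-coding genes, and 22198 starts of 15842 of them on 23 chromosomes, without chromosome 8. Shares near starts leave out regions on chromosomes without starts in the table. A region was assigned to the gene with the nearest end within 50 kb. All 271 distinct genes of 13 lists were found, and 270 are protein-coding. Genes were named by a rule: 10 with the most members (ties by the larger share of control-shared regions, then by symbol), list genes with 3 or more members or with a member at a gene end, genes at the 10 highest-ranking members, genes of 3 runs with the most members (ties by the shorter span, chosen after the data were seen), and ZHX2, HIF1A, VEGFA, CA9, PDK1, ESR1 and PGR. That gave 56 genes, of which the text describes most; 1 is not reported here. Wilson 95% intervals were used. Scripts ran in python 3.11.15 with numpy 2.4.6, pandas 2.3.3 and scipy 1.17.1 and were tested on simulated regions. Alternatives were the overlap, merge distance, shortened lists, chromosomes, windows, assignment distance and the measure of strength. A pair of motif alternatives (1 start per member; no GOLGA8 starts) and 1 denominator were added after the data were seen.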

Additional observations from a re-analysis of the deposited data

How the results depend on the processing

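The number of members stayed within 1.5 times 14973 with an overlap of 50% of the narrower region, a merge distance of 200 bp, or chromosomes 1 to 22 and X. Shortening changed it: 7604 (16% of merged regions) with the stronger 50% of each list, of which 514 were members of the full lists, 5338 (7.03%) with equal lengths by score and 6587 (8.34%) by fold. The share within 1 kb of a start was 1.91% with a window of 0.5 kb and 3.77% with 2 kb, and that at a gene end 3.35% and 7.91%. Genes with a member were 23.7% at 20 kb, 34.9% at 100 kb and 13.8% with equal lengths, where 63 list genes had one against 118. The decile shares were, by hypoxia score, normoxia fold and hypoxia fold, 67.1%, 45.5% and 50.1% in the lowest, 19.1%, 30.9% and 23.2% in the fifth, and 0%, 0.528% and 0.0904% in the highest decile. With equal lengths, 35 of 56 named genes and 10 of 13 gene lists changed their count by over 1.5 times, and at 20 kb 28 genes and 3 lists. All 17 motif shares stayed within their intervals under both added settings. The cause of these shifts was not tested, beyond the fewer regions that a shorter list holds. No paired analysis was possible because the lists carry no values per sample, and for the same reason no replicate could be left out. Motifs in the central 200 bp of regions were not searched, since no genome was used here. Depth is unknown, so how far it sets the list lengths, and with them the members, cannot be told.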
